A study of Mus musculus with 8 samples.

Results

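The 10 genes described here take part in or mark the formation of ventricular trabeculae, and were followed in ventricular heart tissue of mouse (Mus musculus) embryos at embryonic day 11.5. They were chosen by name: the secreted factors Nppa, Nppb, Bmp10, Nrg1 and Slit3, the receptors Erbb2, Erbb4 and Notch1, and the transcriptional repressors Hey1 and Hey2. All 10 were found among the 52778 rows of the deposited table, and all 10 reached the mean of 1 TPM that was required for testing, as did 15541 rows in all. TPM corrects reads for transcript length and gives every library an equal total, so that levels of different genes can be set side by side.

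RNA was sequenced from 4 conditional knockout (cKO) and 4 control libraries. The cKO embryos were Rps19bp1 fl/fl and carried Xmlc2-Cre +/−, whose recombinase acts in cardiomyocytes. The controls are called only that, and whether they carried floxed alleles or Cre is not given in the sources used here. No compound was given to either group, and the samples of each genotype are described as biological replicates without mention of litters or pooling. Other cells of the ventricle, including the endocardium, would keep the gene in this model. The labels disagree with each other. The genotype field reads C57BL/6 WT for all 8 libraries. The extraction text concerns cortical neurons and ribosomal RNA depletion, whereas the design text concerns ventricles and poly(A) libraries. The sample titles name the heart.

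The libraries held transcripts of ventricular muscle. Myl2, the ventricular regulatory light chain, stood at 9343 ± 47.5 TPM in cKO and 9704 ± 630 in control (SD, n = 4), whereas 8 of 12 neuronal marker genes were below 1 TPM in every library. Myl7, an atrial light chain that the young ventricle also makes, stood at 3071 ± 401 TPM in cKO and 3281 ± 262 in control. Sln, a more strictly atrial gene, was between 0 and 2.49 TPM. Of the other genes of the atrial list, Myl4 stood at 5208 ± 220 TPM in cKO and 5055 ± 213 in control. Kcnj5 ran from 49.2 to 54.8 TPM over all libraries. Whether atrial tissue was included was not tested. Rps19bp1 itself measured 40.9, 44.2, 34.7 and 40.0 TPM in control libraries 1 to 4 and 15.2, 11.8, 13.7 and 19.2 TPM in cKO libraries 1 to 4. It fell by 1.37 on the log2 scale (SE 0.127, limma adjusted p = 0.000508), to 37.5% of the control mean. Mitochondrially encoded transcripts took 13.2% to 16.2% of each cKO library and 11.4% to 12.2% of each control library, with the highest share in cKO library 3.

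Trabeculae are the muscular ridges that grow from the compact wall into the lumen of the embryonic ventricle. Notch1 signals in the endocardium, and neuregulin from the endocardium acts on ErbB2 and ErbB4 in the underlying cardiomyocytes. Bmp10 made by trabecular cardiomyocytes supports their growth. Nppa and Nppb encode the natriuretic peptides and mark differentiating chamber myocardium, with highest levels in trabeculae, while Hey2 is a repressor of the compact ventricular wall. Slit3 is a ligand of Robo receptors and is expressed in the developing chambers.

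Promoter sequence is shown for the members whose groups did not overlap (Nppa, Nppb and Erbb2) and for Hey2, the member with a match for the Notch effector RBPJ. RefSeq (build GRCm38.p6) gave an entry for 8 of the 10 members, all but Nrg1 and Hey1. The 250 bases before each start site were searched on both strands for 7 motifs of cardiac factors, Notch signalling and transcription start. The NK2 homeobox motif was searched as TNAAGTG and the T-box motif as GGTGTGA. The motif of GATA factors was spelled as the letters GATAAG, and the M-CAT motif bound by TEAD factors was spelled as the letters CATTCC. The RBPJ motif of the Notch pathway was written as GTGGGAA, the TATA box was written as the letters TATAAA, and the CArG box was searched by its usual consensus. Capitals mark the matches. Bases that the GENCODE M21 annotation places in an exon were left out of the longer sequences. The Nppb matches lie in bases so annotated, and are shown with 30 bases each. The lines give Nppa at chr4:148000472-148000721 on the plus strand, Nppb at chr4:147985783-147985812 and chr4:147985857-147985886 on the plus strand, Erbb2 at chr11:98412234-98412469 on the plus strand and Hey2 at chr10:30842802-30843033 on the minus strand.
Nppa: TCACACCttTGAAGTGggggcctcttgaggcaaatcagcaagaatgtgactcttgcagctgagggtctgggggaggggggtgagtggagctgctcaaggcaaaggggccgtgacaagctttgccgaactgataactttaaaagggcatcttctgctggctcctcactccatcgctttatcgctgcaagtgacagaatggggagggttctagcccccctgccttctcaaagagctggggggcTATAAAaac
Nppb M-CAT: gctcagccggcaGGAATGcagctgataaat
Nppb TATA: actcagccccagTATAAAaggcagaggcac
Erbb2: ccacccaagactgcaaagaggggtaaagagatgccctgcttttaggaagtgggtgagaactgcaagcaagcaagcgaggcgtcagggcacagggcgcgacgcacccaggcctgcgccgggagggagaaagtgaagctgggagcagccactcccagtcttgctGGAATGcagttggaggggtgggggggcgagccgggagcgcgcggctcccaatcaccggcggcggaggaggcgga
Hey2: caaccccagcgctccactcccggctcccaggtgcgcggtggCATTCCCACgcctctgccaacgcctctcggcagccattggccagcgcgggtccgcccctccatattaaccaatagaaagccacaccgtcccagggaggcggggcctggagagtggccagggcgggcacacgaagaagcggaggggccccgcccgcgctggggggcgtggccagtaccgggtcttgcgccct
Counting back from the start site of the RefSeq promoter entry, which for Nppb lies downstream of the start of its row in the deposited table, the Nppa sequence held a T-box match at -250 on the reverse strand, an NK2 match at -241 and a TATA match at -9. The Nppb stretches held M-CAT at -105 on the reverse strand and TATA at -31, and Erbb2 held M-CAT at -88 on the reverse strand. In Hey2 an M-CAT match at -209 overlapped an RBPJ match at -207 on the opposite strand, so that both lie in the same run of capitals. M-CAT matched in 4 of the 8 members with an entry (Nppb, Erbb2, Notch1 and Hey2) and in 12.6% of 32851 mouse promoters. The TATA match was found in 2 of the 8 and in 12.4% of all promoters. NK2 (10.1% of all promoters), T-box (3.33%), RBPJ (5.42%) and GATA (6.55%, in Bmp10 at -218) matched in 1 member each, and the CArG box (1.47%) in 0. These matches are letters in a window and were not measured as binding sites.

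The 10 genes spanned a wide range of levels. Nppa was highest, at a mean of 5060 TPM over the 8 libraries, which placed it 18th of the 15541 tested rows. Nppb followed at 451.7 TPM, then Bmp10 at 133.2, Hey2 at 94.1, Erbb2 at 60.9 and Notch1 at 32.2. Slit3 (18.1 TPM), Hey1 (16.0) and Erbb4 (14.7) lay close together, and Nrg1 was lowest at 6.62 TPM. Between neighbours in this order, the ranges over the 8 libraries overlapped for Slit3 with Hey1 and for Hey1 with Erbb4, and for no other pair.

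Between cKO and control, Nppb rose and Erbb2 fell, and the other 8 genes did not pass the test (limma on log2(TPM + 1), Benjamini-Hochberg over all tested rows, adjusted p under 0.05). That is 1 member called higher, against 2.16% of all tested rows, and 1 called lower, against 4.23%. In either direction, 6.4% of tested rows were called (336 higher and 658 lower). This split depends on scaling: quantile normalization gave 383 higher and 380 lower. Median-ratio scaling gave 383 and 419, and scaling without mitochondrial and globin rows 388 and 396. Scaling to the mean log2 level of the cardiomyocyte list gave 329 and 101. The groups did not overlap for 3 of the 10 members (Nppa and Nppb higher in cKO, Erbb2 lower), against 15.6% of tested rows (5.33% higher and 10.3% lower). An unadjusted p under 0.05 was reached by 5 of the 10 (Nppa, Nppb, Nrg1, Erbb2 and Notch1), against 23.7% of tested rows. The median fitted change was 0.09 over the members and -0.02 over all tested rows, on the log2 scale. The tissue is bulk, so fewer cells of a type and less RNA per cell cannot be told apart in any of these values.

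**Figure D1:**
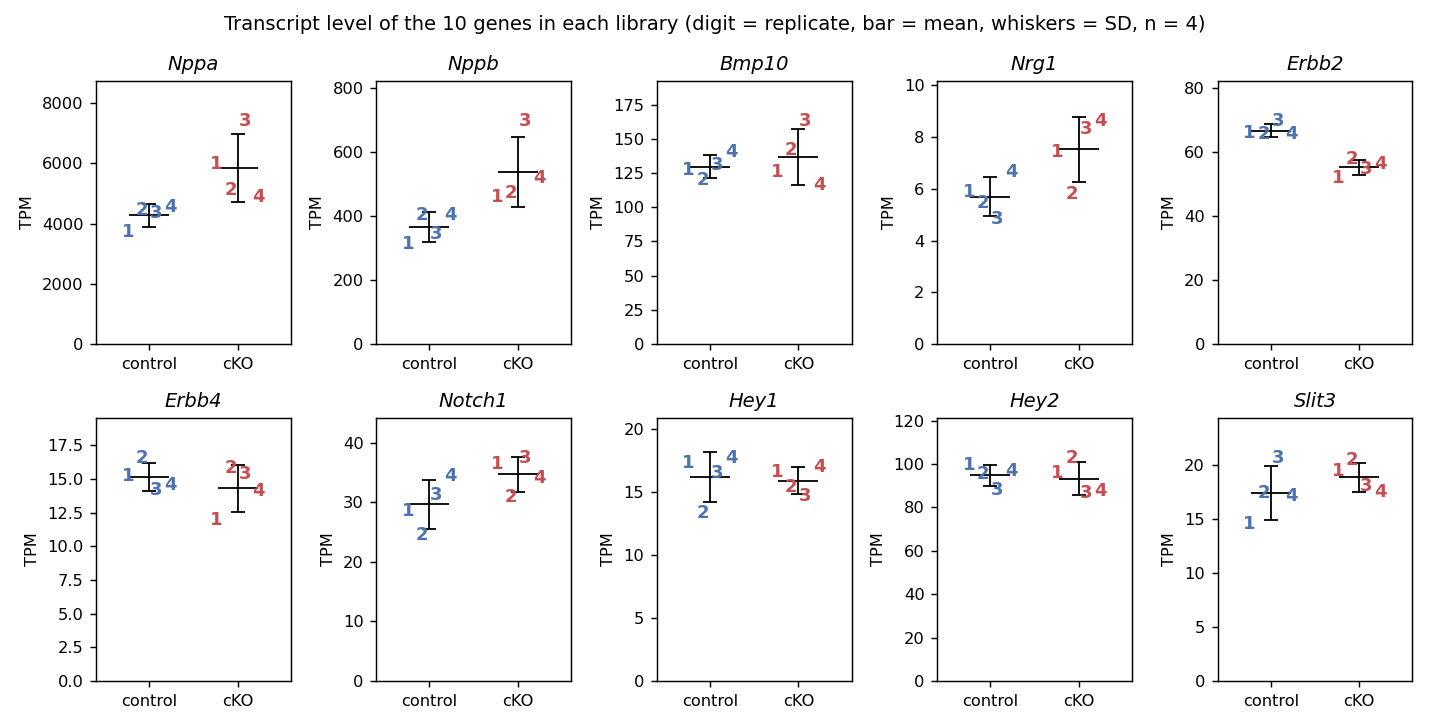
Transcript level in TPM (vertical axes, each from 0) of the 10 genes in each control (blue) and cKO (red) library, with digits for the replicate, bars for the mean and whiskers for the SD (n = 4). Every cKO library lies above every control library for Nppa and Nppb and below every control library for Erbb2, and the groups overlap for the other 7 genes.

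**Figure D2:**
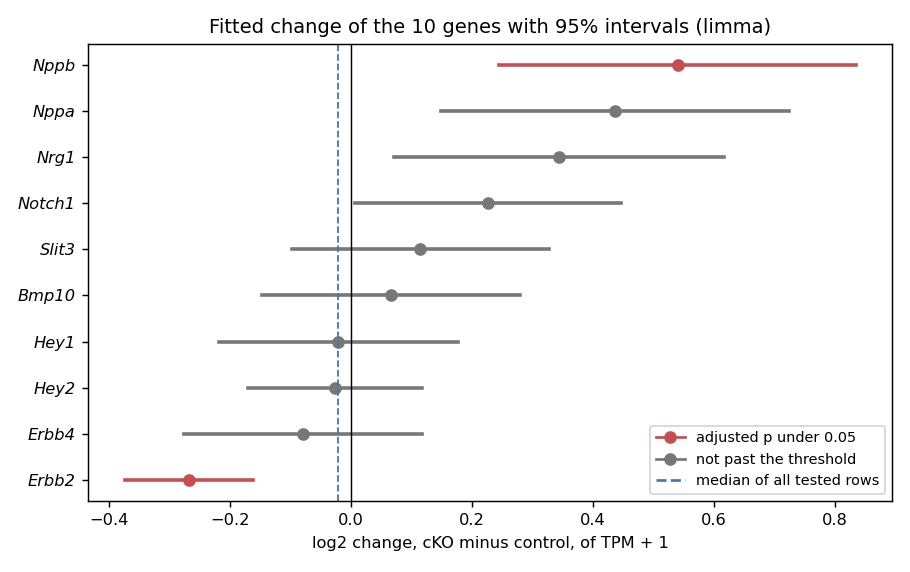
Fitted log2 change of TPM + 1, cKO minus control (horizontal axis), of the 10 genes with 95% confidence intervals from limma. Nppb (0.54) and Erbb2 (-0.27) are drawn in red as past an adjusted p of 0.05, and the dashed line is the median of all tested rows (-0.02).

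Nppb, which encodes B-type natriuretic peptide, lies at chr4:147985786-147987205 on the plus strand of GRCm38. It measured 312, 404, 346 and 403 TPM in control libraries 1 to 4 and 460, 471, 697 and 521 TPM in cKO libraries 1 to 4. Every cKO library was above every control library, and cKO library 3 stood well above the other 3. The mean was 537 ± 110 TPM in cKO and 366 ± 45.4 in control (SD, n = 4), a 1.47-fold difference. On the log2(TPM + 1) scale Nppb rose by 0.54 (SE 0.132, 95% interval 0.24 to 0.83, limma adjusted p = 0.0410). The call was close to the threshold: it was lost when any of the 8 libraries was left out (log2 change 0.41 to 0.61, limma adjusted p 0.0507 to 0.105).

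Nppa, which encodes atrial natriuretic peptide, lies 13516 bases downstream of Nppb at chr4:148000722-148002074 on the same strand. Control libraries 1 to 4 held 3723, 4450, 4371 and 4561 TPM, and cKO libraries 1 to 4 held 5971, 5121, 7403 and 4882 TPM. The groups did not overlap (exact two-sided permutation p = 0.0286, the smallest that 4 against 4 can give), and cKO library 3 was again the highest. That library also had the highest mitochondrial share. Without it the log2 difference was 0.32 for Nppa and 0.41 for Nppb, and on scaling without mitochondrial and globin rows it was 0.47 (limma adjusted p = 0.0706) and 0.57 (adjusted p = 0.0451). The means were 5844 ± 1139 TPM in cKO and 4276 ± 377 in control (SD, n = 4). The fitted log2 difference was 0.44 (SE 0.129, 95% interval 0.15 to 0.72) with a limma adjusted p of 0.0768, so that Nppa was not called. Among the 7 other tested rows within 100 kb of the pair, 0 were called by limma. An unadjusted p under 0.05 was reached by 3 of the 7, against 23.7% of all tested rows. The log2 differences of the 7 ran from -0.22 (2510039O18Rik) to 0.29 (Chchd2-ps). Nppb stood at 0.0791 to 0.0909 of the Nppa level within control libraries and 0.0770 to 0.107 within cKO libraries, so that the ratio of the natriuretic peptide transcripts overlapped between groups.

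Bmp10, the growth factor of trabecular cardiomyocytes (chr6:87428994-87434512, plus strand), was similar in level in both groups. It measured 128, 120, 131 and 141 TPM in the controls and 125, 142, 163 and 117 TPM in cKO, where library 3 was the highest and library 4 the lowest of all 8. The difference was 0.07 on the log2 scale (95% interval -0.15 to 0.28, limma adjusted p = 0.724), and without cKO library 3 it was -0.02. Nppa was 29.2 to 37.2 times the level of Bmp10 in control libraries and 36.1 to 47.6 times in cKO libraries, and Nppb was 2.45 to 3.38 and 3.32 to 4.47 times, with overlapping groups in both ratios.

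Erbb2 encodes the receptor tyrosine kinase that binds no neuregulin itself and signals as the partner of ErbB4. It lies at chr11:98412484-98437716 on the plus strand. It measured 65.8, 65.4, 69.5 and 65.6 TPM in the controls and 51.9, 57.6, 54.6 and 56.3 TPM in cKO. Every cKO library was below every control library, and the spread within each group was small. The mean fell to 55.1 ± 2.46 TPM from 66.6 ± 1.98 (SD, n = 4), which is 82.8% of control (log2 change -0.27, SE 0.0475, 95% interval -0.37 to -0.16, limma adjusted p = 0.0128). The call was lost under 1 of 19 alternatives, scaling to the cardiomyocyte list (log2 change -0.20, adjusted p = 0.0974). Its last bases overlap the end of Mien1 on the opposite strand, which was at 51.4 TPM in cKO and 58.5 in control (limma adjusted p = 0.470). Whether strand was used in counting is not given in the sources used here.

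Erbb4, the receptor that binds neuregulin (chr1:68031884-69108576, minus strand), measured 15.2, 16.6, 14.2 and 14.6 TPM in the controls and 11.9, 15.8, 15.4 and 14.1 TPM in cKO. Libraries 1 and 4 of cKO lay below all controls and the other 2 within their range, and the fitted difference was -0.08 (95% interval -0.28 to 0.12, limma adjusted p = 0.633). Erbb2 was 3.95 to 4.90 times the level of Erbb4 in control libraries and 3.55 to 4.35 times in cKO libraries.

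Nrg1, the ligand (chr8:31807452-32891609, minus strand), was the least abundant member. The controls held 5.87, 5.46, 4.83 and 6.65 TPM and the cKO libraries 7.42, 5.81, 8.30 and 8.62 TPM, with cKO library 2 inside the control range and the other 3 above it. The means were 7.54 ± 1.26 TPM in cKO and 5.70 ± 0.760 in control (SD, n = 4). The fitted difference was 0.34 (SE 0.122, 95% interval 0.07 to 0.62) and did not pass the threshold (limma adjusted p = 0.126). It passed when cKO library 2 was left out (0.45, adjusted p = 0.0468). The predicted gene Gm46076, at 19.4 to 31.5 TPM, lies inside Nrg1 on the same strand and showed no called difference (limma adjusted p = 0.872). How reads shared by such rows were assigned is not given in the sources used here.

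Of the 27 other neuregulin and ErbB pathway genes, 23 were tested, and limma called 0 of them. An unadjusted p under 0.05 was reached by 6 of the 23, against 23.7% of all tested rows. The median change of the 23 genes was 0.07. Under quantile normalization 1 was called higher, as also when control library 4 was left out. With array weights 1 was called lower, as also with a filter at a mean TPM of 5. The adaptors Grb2 and Gab1, which link activated receptors to Ras and to phosphoinositide signalling, had groups that did not overlap but missed the threshold. Grb2 was at 60.5 ± 2.13 TPM in cKO and 68.7 ± 2.73 in control (SD, n = 4, log2 difference -0.18, limma adjusted p = 0.0510). Gab1 was at 62.4 ± 2.01 and 68.7 ± 1.99 TPM (-0.14, adjusted p = 0.0973). Hbegf, another ligand of ErbB4, differed by 0.23 (adjusted p = 0.0746), and Dusp6, a phosphatase induced by ERK activity, by 0.18 (adjusted p = 0.0869). The ligand genes Nrg3, Btc, Ereg and Areg were below 1 TPM in all 8 libraries.

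Notch1, the receptor of the endocardium (chr2:26457902-26503822, minus strand), measured 28.5, 24.5, 31.2 and 34.3 TPM in the controls and 36.4, 30.8, 37.4 and 34.0 TPM in cKO. The ranges overlapped between 30.8 and 34.3 TPM. The fitted difference was 0.23 (95% interval 0.01 to 0.45, limma adjusted p = 0.199).

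The repressors Hey1 and Hey2, targets of Notch signalling, showed no called difference. Hey2 (chr10:30832359-30842783, minus strand), the ventricular member of the pair, measured 99.5, 95.3, 88.1 and 96.7 TPM in the controls and 96.0, 103, 86.7 and 87.4 TPM in cKO. Its difference was -0.03 (95% interval -0.17 to 0.12, limma adjusted p = 0.841). The predicted gene Gm51763 lies inside Hey2 on the opposite strand, at 10.6 TPM in cKO and 8.76 in control (limma adjusted p = 0.0777). Hey1 (chr3:8663359-8667038, minus strand), the atrial member in myocardium, measured 17.3, 13.3, 16.5 and 17.7 TPM in the controls and 16.5, 15.4, 14.7 and 17.0 TPM in cKO, a difference of -0.02 (95% interval -0.22 to 0.18, limma adjusted p = 0.914). Both differences were close to 0 and changed sign under median-ratio scaling, under scaling without mitochondrial and globin rows and under scaling to the cardiomyocyte list. Hey2 was 5.35 to 7.14 times the level of Hey1 in control libraries and 5.16 to 6.69 times in cKO libraries.

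Among 29 tested genes of the Notch pathway outside the members, limma called 2 higher and 1 lower, against 2.16% and 4.23% of all tested rows. The median change of the 29 genes was -0.01. Notch3, a receptor best known from mural cells of vessels, rose to 18.0 ± 0.424 TPM from 12.4 ± 2.47 (SD, n = 4, log2 change 0.53, limma adjusted p = 0.0282). Psen2, a catalytic subunit of the gamma-secretase that releases the Notch intracellular domain, rose to 18.2 ± 1.15 TPM from 14.9 ± 1.06 (0.28, adjusted p = 0.0433). Nrarp, a Notch target that limits the pathway, fell to 14.4 ± 1.34 TPM from 19.2 ± 1.78 (-0.40, adjusted p = 0.0244). These calls were lost in 7, 11 and 7 of 19 alternatives for Notch3, Psen2 and Nrarp. The ligand genes Dll4 (-0.03, adjusted p = 0.910) and Jag1 (-0.16, adjusted p = 0.174), the target Hes1 (-0.19, adjusted p = 0.443) and Rbpj (0.02, adjusted p = 0.938) did not pass.

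Slit3 (chr11:35121456-35708507, plus strand) measured 14.6, 17.4, 20.6 and 17.1 TPM in the controls and 19.4, 20.4, 18.0 and 17.4 TPM in cKO. All cKO libraries lay within the control range, and the difference was 0.11 (95% interval -0.10 to 0.33, limma adjusted p = 0.513). Of the 6 other tested Slit and Robo genes, 1 was called, against 6.4% of all tested rows in either direction. Robo2, an axon-guidance receptor also found in the heart, rose from 1.62 ± 0.279 to 2.60 ± 0.245 TPM (SD, n = 4, 0.46, limma adjusted p = 0.0379), a low level at which the pseudocount of 1 compresses the change, and the call was lost in 9 of 18 alternatives. Robo1 was at 28.8 ± 2.75 TPM in cKO and 22.6 ± 4.46 in control (0.35, adjusted p = 0.137). The median change of these 6 genes was 0.18.

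Receptors and effectors of Bmp9 and Bmp10 gave 0 calls by limma among 20 tested genes. An unadjusted p under 0.05 was reached by 8 of the 20, against 23.7% of all tested rows. The median change of the 20 genes was 0.06, and quantile normalization called 2 of them higher. Acvrl1, the high-affinity receptor of endothelium, was at 2.69 ± 0.139 TPM in cKO and 3.38 ± 0.475 in control (SD, n = 4, -0.24, limma adjusted p = 0.174). Bmpr1a, a type I receptor found in cardiomyocytes, differed by 0.04 (adjusted p = 0.590), and the Bmp target genes Id2 and Id3 by 0.23 and 0.25 (adjusted p = 0.104 and 0.130).

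In the natriuretic peptide system, 2 of 7 tested genes were called, both higher, against 2.16% of all tested rows. The median change of the 7 genes was 0.15. The count of called genes was between 1 and 3 over the alternatives. Mme, the peptidase neprilysin that degrades natriuretic peptides, rose to 12.8 ± 0.345 TPM from 9.24 ± 0.129 (SD, n = 4, 0.43, limma adjusted p = 0.00279). Corin, the membrane protease that cleaves the Nppa precursor, rose to 38.0 ± 3.70 TPM from 31.4 ± 0.952 (0.26, adjusted p = 0.0498), a call lost in 12 of 19 alternatives. Npr3, the clearance receptor, was at 93.4 ± 7.01 and 78.6 ± 5.38 TPM (0.25, adjusted p = 0.0561), and Npr1, the signalling receptor of both peptides, differed by -0.06 (adjusted p = 0.613).

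**Figure D3:**
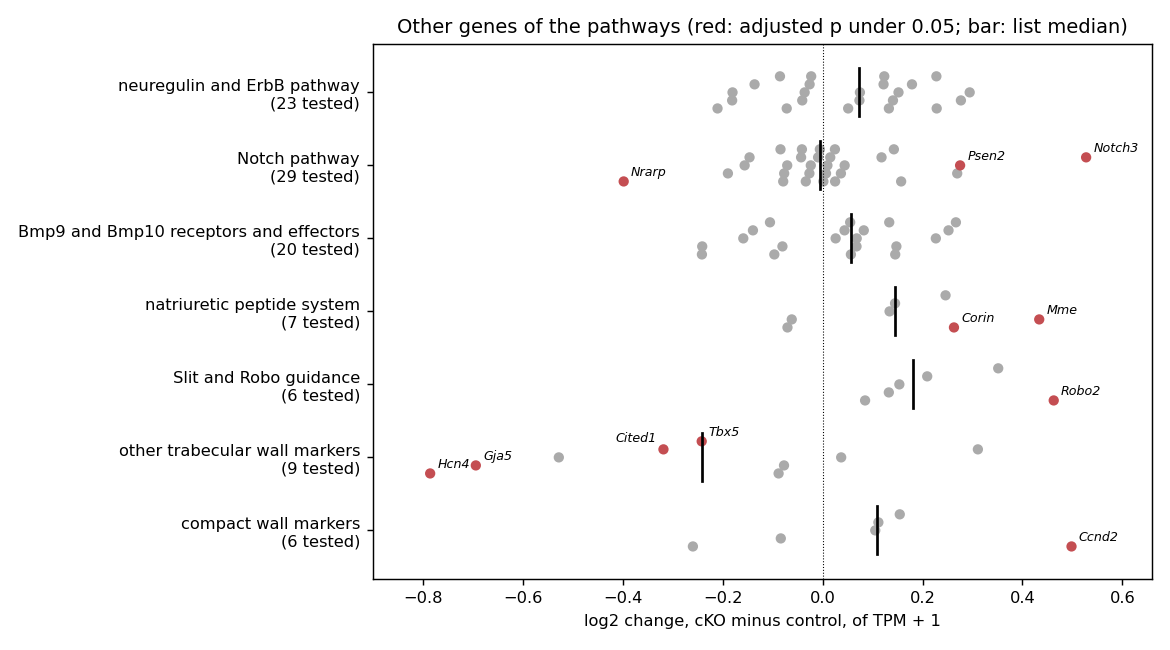
Fitted log2 change of TPM + 1, cKO minus control (horizontal axis), of each tested gene of 7 lists outside the 10 members (points, red where the limma adjusted p is under 0.05, bars for list medians). The list of other trabecular wall markers, which also holds conduction system genes, has 4 red points, all below 0. The neuregulin and Bmp lists have 0.

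A further list held genes known from the trabecular wall or the ventricular conduction system that derives from it. Of 9 tested, 4 were called lower and 0 higher, against 4.23% and 2.16% of all tested rows. A fitted change above 0 was seen in 2 of the 9. The median change was -0.24, against -0.02 over all tested rows. Gja5, the gap-junction protein connexin 40, measured 176, 164, 141 and 151 TPM in the controls and 93.3, 96.3, 113 and 87.2 TPM in cKO. It fell by 0.69 on the log2 scale (limma adjusted p = 0.00308), with every cKO library below every control. Hcn4, a pacemaker channel, fell by 0.79, from 28.0 ± 1.97 to 15.9 ± 2.36 TPM (SD, n = 4, adjusted p = 0.00279).

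Cited1, a transcriptional co-regulator abundant in trabeculae, fell by 0.32, from 932 ± 68.2 to 747 ± 41.6 TPM (SD, n = 4, limma adjusted p = 0.0222). Tbx5, a T-box activator of chamber genes, fell by 0.24 (33.8 ± 1.38 against 40.2 ± 2.70 TPM, adjusted p = 0.0386). The Gja5 and Hcn4 calls held in all 19 alternatives, whereas the Cited1 call was lost in 6 and the Tbx5 call in 14. Between 2 and 5 of these genes were called lower over the alternatives, with 2 called with no filter on low values, on scaling to the cardiomyocyte list, under the replicate block, and without cKO library 1, cKO library 3 or control library 3. Irx3, a homeobox factor of the conduction system, ran from 25.4 to 42.6 TPM in cKO and from 46.5 to 51.9 in control and missed the threshold (-0.53, adjusted p = 0.0657). Smpx (0.04, adjusted p = 0.686), Sema3a (-0.08, adjusted p = 0.705) and Cacna2d2 (-0.09, adjusted p = 0.761) were also not called. Pcp4, a calmodulin-binding peptide gene, had the highest fitted change of the 9, at 1.46 ± 0.302 TPM in cKO and 0.993 ± 0.343 in control (SD, n = 4, 0.31, limma adjusted p = 0.238), and was not called.

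Of 6 compact wall markers, 1 was called, higher in cKO, against 2.16% of all tested rows. Array weights also called 1 lower. Ccnd2, a D-type cyclin of G1 phase, measured 249, 230, 238 and 229 TPM in the controls and 327, 321, 364 and 325 TPM in cKO. It rose by 0.50 on the log2 scale (SE 0.0535, limma adjusted p = 0.00129) in all 19 alternatives. Ccnd1 (0.15, adjusted p = 0.118), Tbx20 (0.11, adjusted p = 0.260), Mycn (-0.08, adjusted p = 0.360) and Prdm16, a regulator of compact wall identity (-0.26, adjusted p = 0.0659), did not pass, and the list median was 0.11.

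**Figure D4:**
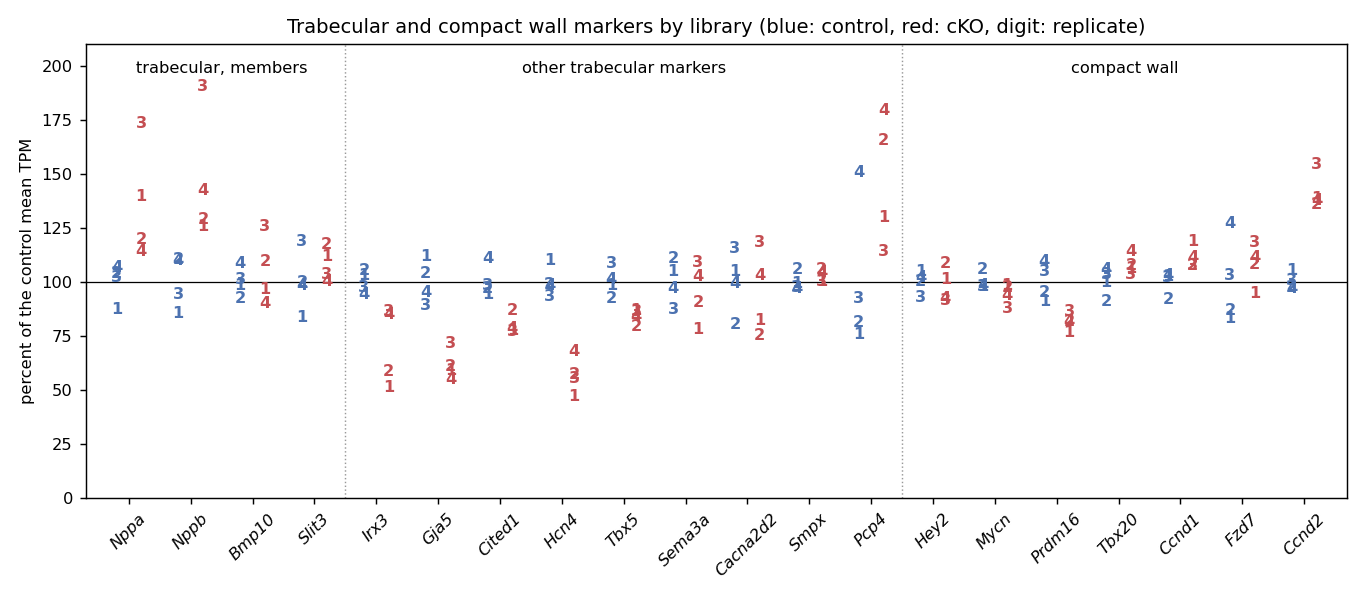
Level of wall markers in each library as a percent of the control mean TPM (vertical axis, from 0). Control is in blue and cKO in red, with digits for the replicate. At the left are 4 members, then the 9 other trabecular or conduction system markers, then the member Hey2 with the 6 compact wall markers. The cKO libraries lie above the controls for Nppa, Nppb, Ccnd1 and Ccnd2, and below them for Irx3, Gja5, Cited1, Hcn4, Tbx5 and Prdm16, and the groups overlap for the other genes drawn.

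Lists of cell type markers gave calls in some lists and 0 in others. Over all tested rows, 6.4% were called and 23.7% had an unadjusted limma p under 0.05. Of 18 tested cardiomyocyte genes, 1 was called, with a median change of -0.05 and a summed level of 51061 to 53472 TPM in cKO and 52118 to 57176 in control. The called gene was Nkx2-5, the homeobox factor of cardiomyocytes that activates Nppa, which fell by 0.48 (205 ± 37.7 against 282 ± 27.7 TPM, SD, n = 4, limma adjusted p = 0.0453). That call was lost in 14 of 19 alternatives. Of 4 tested ventricular markers, 1 was called. This was Irx4, a ventricular repressor, which fell by 0.35 (73.8 ± 2.31 against 94.5 ± 3.48 TPM, adjusted p = 0.00308) in all 19.

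Markers of endocardium and endothelium, known sources of Notch1 and Nrg1, gave 0 calls by limma among 13 tested, 4 with an unadjusted p under 0.05. Their median change was 0.11, and they summed to 1233 to 1401 TPM in cKO and 1220 to 1304 in control. Under quantile normalization 1 of them was called higher. Of 9 epicardial markers 5 were called higher (median 0.36, sum 462 to 566 TPM in cKO and 394 to 454 in control), among them Tcf21, which rose by 0.52 (adjusted p = 0.0121). That count was 2 without cKO library 1 or 3 or control library 1, 2 or 4, 2 without a trend and 1 with no filter on low values. Cushion and mesenchymal markers gave 4 of 10 called higher (median 0.48, sum 875 to 1067 and 587 to 767 TPM), among them Col3a1, which rose by 0.40 (adjusted p = 0.00459), and 1 with no filter. The atrial list gave 0 calls among 7 tested, 1 with an unadjusted p under 0.05, and summed to 7692 to 9080 TPM in cKO and 8108 to 8752 in control. Every gene of these 6 lists was above 0 TPM in every library, except Sln at 0 in cKO library 4. Erythroid genes gave 0 calls by limma among 8 tested, 0 with an unadjusted p under 0.05. Their median change of -0.39 was -0.05 without control library 4 and -0.19 without cKO library 3. It was -0.62 without control library 1 and -0.52 without cKO library 1. Macrophage genes gave 0 calls among 5 tested (median 0.47, 1 with an unadjusted p under 0.05) and 3 without cKO library 4. Nefl was called lower among 3 tested neuronal genes, but not without control library 1 or control library 3. That call was also lost with no filter on low values, on scaling to the cardiomyocyte list and under the replicate block. With a filter at a mean TPM of 5, Nefl was not tested. The part of these differences in the values of the 10 genes was not tested.

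Rows whose profile over the 8 libraries was nearest to that of each called member were found among 12715 named rows, as a description. For Nppb these were Bbc3 (root mean square difference 0.123 on the log2 scale), which encodes a p53-induced promoter of apoptosis, Mir22hg (0.138) and Ercc5, a DNA repair endonuclease (0.141). Bbc3 was at 17.7 ± 2.98 TPM in cKO and 11.8 ± 0.785 in control (SD, n = 4). For Erbb2 they were Fbxo45 (0.0151), a ubiquitin ligase subunit, Kif13a (0.0319), a kinesin, and Csnk1g2 (0.0330), a casein kinase. Fbxo45 was at 18.8 ± 0.875 TPM in cKO and 22.7 ± 0.636 in control.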

How the data were processed

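RNA levels were measured in 4 cKO and 4 control libraries, grouped by treatment label and title. The authors deposited TPM values, a length-scaled share that sums to about 1000000 in each library. The submitters' processing notes name FastQC, Trim Galore 0.6.7, HISAT2 2.2.1, StringTie 2.2.1, featureCounts, DESeq2 and the build GRCm38, with no roles. Annotation and use of strand are not given in the sources used here. TPM keeps no depth, so depth is unknown and precision is that between libraries: between 15336 and 15752 rows reached 1 TPM per library. Every library carries the same batch label.

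Values were analysed as log2(TPM + 1), which understates changes of low genes, using limma 3.58.1 (R 4.3.3). Tested were rows averaging 1 TPM or more over 8 libraries (lmFit, eBayes with a trend, two-sided, Benjamini-Hochberg over 15541 rows, threshold 0.05). Single values used an exact two-sided permutation test over 70 assignments. The procedure was tested on simulated data with planted log2 changes of 1.5 and 0.75, of which 99% and 82% were recovered. Every member had a smaller fitted change, so recovery at the sizes seen in the members was not tested. Named were the members, Rps19bp1, called genes of each pathway list with up to 4 further genes, up to 5 markers per cell type and the 3 nearest profiles to each called member; genes near Nppb and rows overlapping members were added after their values were seen. A gene that first stood in the trabecular list beside the 9 counted here is not reported here. The members, lists and tests were chosen with earlier results of these data known. Alternatives were 2 other pseudocounts, 2 other filters, 4 scalings, eBayes without a trend, array weights, a replicate block and leaving out each library.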

Additional observations from a re-analysis of the deposited data

Results flagged for a closer look

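In 3 of 50 groups of 4 libraries (25 genes), a single library stood apart from the other 3 by more than Dixon's 95% critical value, a rate of flags that chance alone gives in about 1 group in 20. Erbb2 in control replicate 3 was at 69.5 TPM, with the others at 65.4 to 65.8. Ccnd2 in cKO replicate 3 was at 364 TPM, with the others at 320.8 to 326.8. Cited1 in cKO replicate 2 was at 809 TPM, with the others at 720.9 to 733.3. Each of these libraries was left out in turn, and the call of its gene held without it.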

How the results depend on the processing

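Over 19 alternatives, the 10 members, the count of calls and the count of members called gave 228 values, of which 180 were labelled the same. For a member this label means that direction and side of the threshold were kept. For a count it means that the value stayed within a ratio of 1.5 of the main value. The Nppb call was lost with a log2 change of 0.54 under no filter on low values (adjusted p = 0.148), eBayes without a trend (0.0702) and the replicate block (0.0616), and in all leave-outs (0.41 to 0.61). Erbb2 was not called on scaling to the cardiomyocyte list (-0.20). Nrg1 ranged from 0.28 to 0.45 and Bmp10 from -0.021 to 0.14 over leave-outs. Hey2 changed sign under median-ratio scaling (0.00021), quantile normalization (0.035), scaling with mitochondrial and globin rows removed (0.0082), scaling to the cardiomyocyte list (0.045) and array weights (0.0029), and ranged from -0.075 to 0.0064 over leave-outs. Hey1 changed sign under median-ratio scaling (0.0044), removal of mitochondrial and globin rows (0.012) and cardiomyocyte scaling (0.051), and ranged from -0.11 to 0.021 over leave-outs. The cause of these shifts was not tested.

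The count of called rows, 994, became 347 with no filter, 430 on cardiomyocyte scaling, 609 without a trend and 388 to 936 over leave-outs, lowest without control replicate 1. Members called, 2, became 1 under those 3 settings and the block, and 1 to 2 over leave-outs. Among the 15 other genes followed, 80 values lost a call, 2 gained one, 0 changed sign and the rest kept their side. The replicate block gave 420 calls. Same-numbered libraries correlated at -0.09 to 0.07 over 4 pairs, and 2 of 4 cKO libraries correlated best with their own number. These values do not settle whether the numbers are pairs. The main fit did not treat them as pairs, because the labels give no covariate.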
